A study of Bos indicus and Bos taurus with 17 samples.

Results

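The genes of STAT3 and cytokine JAK signalling were followed in mammary epithelial cells (MEC) captured from milk in 2 cattle breeds across lactation. Earlier results of these data were known when the genes were chosen, by a rule that sets no limit on a measured value. The 10 genes were taken by name from the inflammatory and involution cytokine pathway. They are the cytokine OSM, the receptor chain IL6ST, the kinases JAK1, JAK2, JAK3 and TYK2, the transcription factors STAT3 and STAT6, and the inhibitors SOCS3 and PIAS1. All 10 were found among the 21631 distinct gene names with a value. Each was a single entry except OSM, which had 2 entries, of which the one with the higher mean was used, and JAK3, whose entry was joined with INSL3. The 2 genes lie next to each other in the RefSeq annotation used for names, so the value of the joined entry cannot be assigned to JAK3 alone.

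The milk came from Kashmiri and Jersey cows in early, mid and late lactation, called D15, D90 and D250 after the day in milk, and cells were captured with beads that carry an antibody to cytokeratin 18. The labels name 3 samples for each breed and day, except 2 for Jersey at D90, from cows in lactation number 2 or 3, whereas the study's methods give all cows the same lactation number. All samples of a day carry the same month (March for D15, July for D90 and December for D250), so that day in milk and season cannot be told apart. The level of a gene is its FPKM, a fragment count divided by transcript length and by library size, so that genes can be compared, and 1 deposited value per breed and day was used. Where 3 values of a breed are listed, they stand in the order of the days. There were no values per cow, so neither an error nor a test is given, 1 cow could carry a group value, and differences are described by their size alone.

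Cytokines of the interleukin 6 family, among them oncostatin M (OSM) and leukaemia inhibitory factor (LIF), bind receptors that share the signalling chain gp130, encoded by IL6ST. Kinases of the Janus family bound to the receptors then phosphorylate STAT3, which enters the nucleus and switches on target genes, one of which, SOCS3, shuts the receptor complex down again. In the mammary gland STAT3 is known as the factor that starts involution, when milk secretion ends and alveolar cells die, whereas STAT5 maintains secretion. Neutrophils and macrophages use the same pathway, and activated neutrophils are a known source of OSM.

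The cells labelled as milk epithelial cells also held transcripts of leukocytes, and the amount differed between the breeds. The 13 epithelial markers found summed to 8412, 1093 and 4391 FPKM in Kashmiri cows, and to 3313, 309 and 2462 FPKM in Jersey cows. The 9 neutrophil markers found summed to 153, 465 and 596 FPKM in Kashmiri cows and to 4848, 5612 and 12060.5 FPKM in Jersey cows. Most of this was S100A8, S100A9 and S100A12. In Jersey cows the neutrophil sum exceeded the epithelial sum on every day. The lists hold unlike genes, and the epithelial list leaves out the milk protein genes, so the sums do not measure the shares of the cell types. KRT18, the gene of the bead target, was lowest in Jersey at D90 (1.59 FPKM) and highest in Kashmiri at D15 (51.3 FPKM). The 4 red blood cell markers found summed to under 1 FPKM in every group. In such bulk samples, more cells of a type and more RNA per cell cannot be told apart.

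The main pattern was a high level in Jersey cows at D250. Each of the 10 genes had its highest level in that group as deposited, although with FPKM rescaled (by the upper quartile, or to the total without milk protein genes) IL6ST was higher in Kashmiri than in Jersey at D250, and with the second of these STAT6 was higher at D90 than at D250 in Jersey cows. A gene was counted as past the limit when 1 of 2 groups reached 1 FPKM and the log2 ratio of the groups, computed after adding 1 FPKM to each value, was 2 or more in size (a 4-fold change). In Jersey cattle, 8 of 10 genes were past the limit and higher at D250 than at D15, against 9.17% of all 11320 genes compared. In Kashmiri cattle 1 of 10 was, PIAS1, against 1.85% of all genes. None of the 10 genes was past the limit in the lower direction in any of the 9 comparisons, where 0.466% to 5.17% of all genes were, so that this count is near the background.

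**Figure D1:**
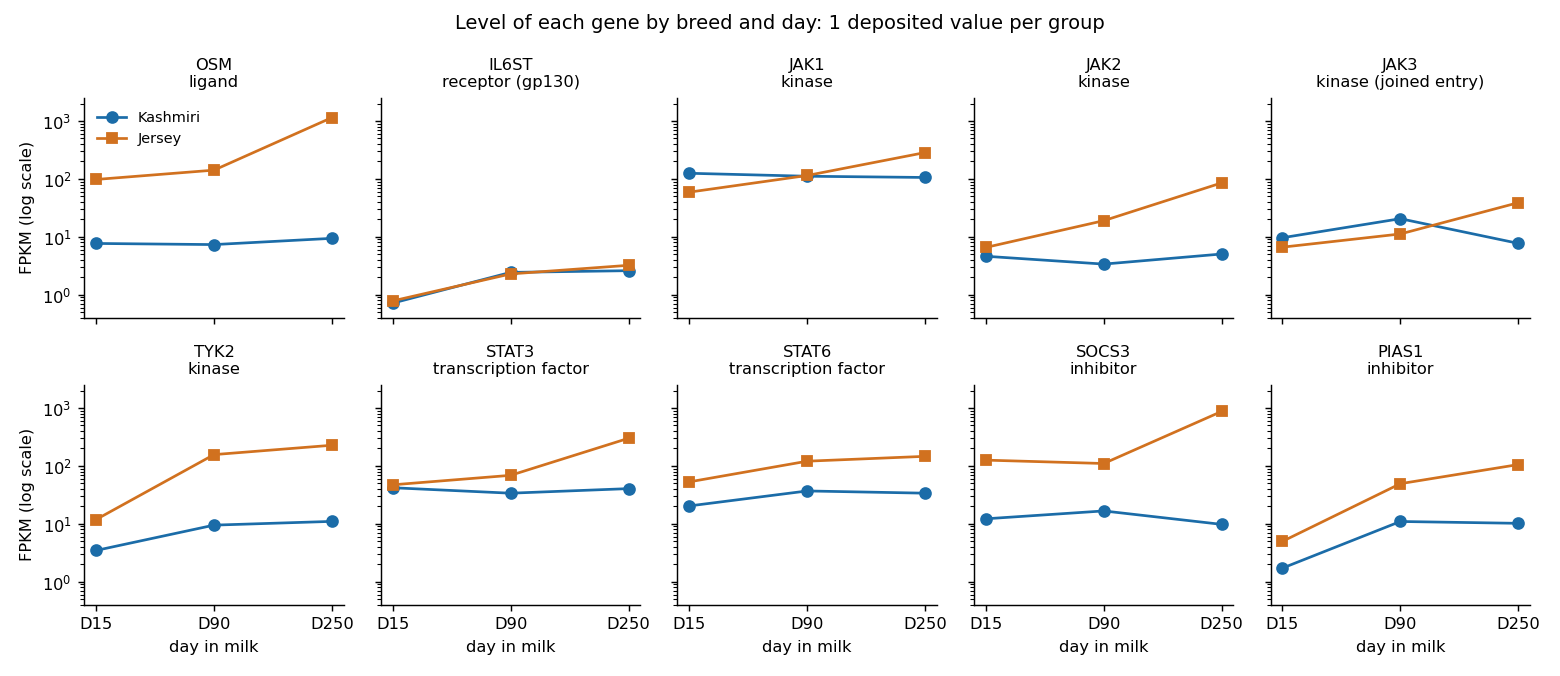
FPKM of the 10 genes (vertical axis, log scale) on D15, D90 and D250 (horizontal axis) in Kashmiri (blue circles) and Jersey cattle (orange squares), with 1 deposited value per point and no error. Jersey at D250 was the highest point in every panel as deposited (for IL6ST and STAT6 not with every rescaling of FPKM), from 3.22 FPKM for IL6ST to 1145 FPKM for OSM. Within Kashmiri cows OSM, JAK1 and STAT3 varied by less than 1.3-fold as deposited, and by more with FPKM rescaled to the total without milk protein genes.

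OSM, the ligand, set the breeds apart on every day. Its level was 7.68, 7.34 and 9.41 FPKM in Kashmiri cows. The Jersey values were 97.8, 142 and 1145 FPKM. The level in Jersey cows was thus 12.7-fold higher at D15, 19.3-fold at D90 and 122-fold at D250. From D15 to D250 the level rose 11.7-fold in Jersey cows, mostly after D90 (8.09-fold). Ranked among all genes above 0.01 FPKM in the same group, a measure that no rescaling of a group can change, OSM lay at percentile 63.6 to 70.4 in Kashmiri cows and at percentile 93.9, 95.6 and 99.2 in Jersey cows. The other OSM entry was lower, from 0.155 to 0.251 FPKM in Kashmiri cows and from 3.29 to 40.4 FPKM in Jersey cows, and was also highest in Jersey at D250.

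IL6ST, the signal-transducing chain for OSM and its relatives, stayed low and nearly alike in both breeds. It had 0.716, 2.43 and 2.60 FPKM in Kashmiri cows, and 0.781, 2.28 and 3.22 FPKM in Jersey cows. The D15 value was the lowest in each breed, and D250 was 3.63-fold higher in Kashmiri and 4.12-fold higher in Jersey cows. With the pseudocount, the log2 ratios were 1.07 and 1.24, short of the limit. The ratio of Jersey over Kashmiri was 1.09, 0.940 and 1.24 at the 3 days, and its direction at D90 and at D250 changed with the scaling. Of the chains that work with gp130, OSMR (0.718 to 3.66 FPKM) and LIFR (0.0368 to 0.260 FPKM) were also low. Others reached higher levels, with IL6R from 5.81 to 159 FPKM, CNTFR from 0.852 to 27.5 FPKM and IL11RA from 3.21 to 20.7 FPKM. Within a group, the FPKM of OSM was 3.02 to 10.7 times that of IL6ST in Kashmiri cows and 62.0 to 356 times in Jersey cows.

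Of 35 other receptor chains and ligands of JAK-coupled cytokines, 33 were found. Between D15 and D250 in Jersey cows, 14 of the 24 that reached 1 FPKM were past the limit and higher, against the 9.17% of all genes, and 0 were past it and lower, against 3.42%. Their median log2 ratio was 2.43, beside 0.07 for all genes. CSF3R, the receptor of granulocyte colony-stimulating factor, had the highest level of the list and rose from 310 to 2549 FPKM between these days, in an entry joined with an unnamed gene. IL6R, the binding chain for interleukin 6, rose from 26.9 to 159 FPKM, and IL6 itself from 0.161 to 7.71 FPKM. The interferon receptor chains IFNGR1 (126 to 549 FPKM), IFNGR2 (140 to 902 FPKM, in a joined entry), IFNAR1 (25.4 to 183 FPKM) and IFNAR2 (30.0 to 223 FPKM) were past the limit as well. So were IL4R (32.6 to 212 FPKM) and IL13RA1 (22.3 to 168 FPKM), the chains of the receptor that signals through STAT6. CSF2RB, the shared chain of the receptors for granulocyte-macrophage colony-stimulating factor and interleukins 3 and 5, rose from 39.1 to 457 FPKM, and IL2RA, IL10, IL15 and CSF3 completed the 14. From D15 to D250 in Kashmiri cattle, 0 of 25 were past the limit and higher (background 1.85%) and 1 (CNTFR) lower (background 2.20%). From D15 to D90, 2 of 24 (IL15 and IFNAR2) were past it and higher in Jersey cattle (background 2.98%) and 1 (CNTFR) lower (background 3.78%). In Kashmiri cattle over these days, 2 of the 28 chains and ligands compared (IL7R and IL21R) were past the limit and higher (background 2.34%) and 3 (CSF2RB, CNTFR and IL11RA) lower (background 5.16%).

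The 4 kinases differed in level and in time course. JAK1, which serves most cytokine receptors, had 125, 111 and 106 FPKM in Kashmiri cows, and 59.0, 114 and 285 FPKM in Jersey cows. At D15 the Jersey level was the lower one, at 0.472 of the Kashmiri level, at D90 both were nearly equal, and at D250 it was 2.69-fold higher. JAK1 rose 4.83-fold from D15 to D250 in Jersey cows and was past the limit there, while in Kashmiri cows the lowest and highest deposited values differed by 1.18-fold. It was at percentile 90.5 or above in every group.

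JAK2, the kinase of the prolactin, growth hormone and colony-stimulating factor receptors, was far lower than JAK1 in Kashmiri cows, with 4.61, 3.38 and 5.05 FPKM. Its Jersey values were 6.55, 19.0 and 85.4 FPKM. The breeds differed by 1.42-fold at D15, but by 5.62-fold at D90 and 16.9-fold at D250, both past the limit. The ratio of JAK1 to JAK2 within a group, which lay between 21.0 and 32.9 in Kashmiri cows, was 9.01, 6.03 and 3.34 in Jersey cows.

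TYK2, the kinase that works with the interferon and interleukin 12 receptors, showed an early rise. It had 3.47, 9.50 and 11.0 FPKM in Kashmiri cows. The Jersey values were 11.9, 157 and 228 FPKM. The 13.2-fold rise from D15 to D90 in Jersey cows was past the limit, and 99.6% of all genes compared had a smaller log2 ratio. D250 over D90 was 1.45-fold, so most of the increase lay before D90, whereas for OSM, SOCS3 and STAT3 it lay after D90. In Kashmiri cattle D250 over D15 was 3.18-fold, a log2 ratio of 1.43 with the pseudocount, which was short of the limit as deposited and past it once FPKM were rescaled to the total left after taking out the milk protein genes.

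The entry that holds JAK3, the kinase bound to the common gamma chain of the interleukin 2 receptor family, was the kinase entry whose highest Kashmiri value came at D90, as it did for STAT6, SOCS3 and PIAS1 among the other genes. It had 9.64, 20.5 and 7.71 FPKM in Kashmiri cows, and 6.62, 11.2 and 38.8 FPKM in Jersey cows. The Kashmiri value at D90 was 2.13-fold that at D15 and 2.67-fold that at D250. At D90 the Jersey level was 0.545 of the Kashmiri level, and at D250 it was 5.04-fold higher. IL2RG, which encodes the gamma chain, had the same order of days in Kashmiri cows, with 119, 375 and 117 FPKM, and increased over the days in Jersey cows with 267, 548 and 747 FPKM. The summed level of 12 T and NK cell markers was 472, 1783 and 421 FPKM in Kashmiri cows, so that it too was highest at D90, but 330, 194 and 111 FPKM in Jersey cows, where it was lowest on the day JAK3 was highest. CD3E alone had 146, 659 and 135 FPKM in Kashmiri and 65.5, 31.7 and 19.5 FPKM in Jersey cows. The part of these cells in the JAK3 value was not tested.

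The mix of the 4 kinases within a group does not depend on how a group was scaled. JAK1 made up 87.6%, 76.9% and 81.7% of the summed FPKM of the kinases in Kashmiri cows. Its Jersey shares were 70.2%, 38.0% and 44.8%. TYK2 took 2.43% to 8.50% in Kashmiri cows, and 14.1%, 52.0% and 35.7% in Jersey cows, so that at D90 in Jersey cows it was the kinase with the highest level. JAK2 had at most 3.89% in Kashmiri cows and 13.4% in Jersey cows at D250. The kinases together summed to 143, 145 and 130 FPKM in Kashmiri cows, and to 84.1, 301 and 637 FPKM in Jersey cows.

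**Figure D2:**
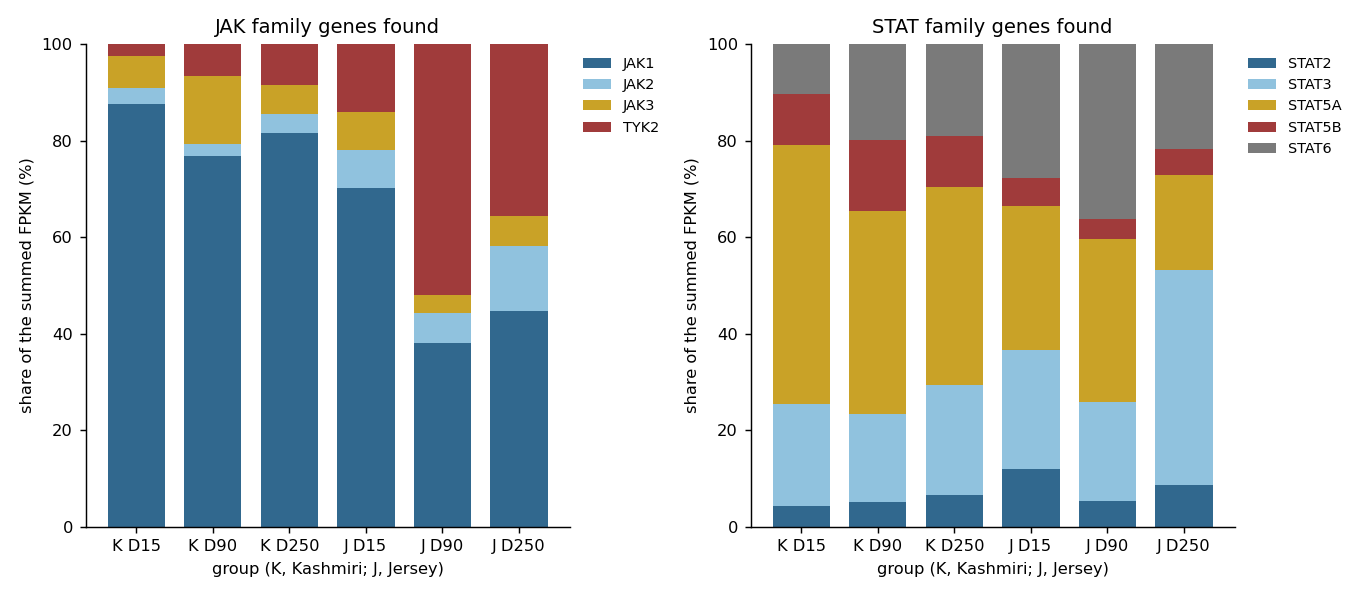
Share (%) of each gene in the summed FPKM of the 4 JAK family genes (left) and of the 5 STAT family genes found (right), 1 bar per breed and day (K, Kashmiri; J, Jersey), with 1 deposited value per gene and group. JAK1 held at least 76.9% of the kinase sum in Kashmiri cows and as little as 38.0% in Jersey at D90, and STAT3 held 44.4% of the STAT sum in Jersey at D250.

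STAT3, the factor that acts below gp130 and that triggers involution, was nearly constant in Kashmiri cows, with 42.0, 33.8 and 40.6 FPKM at D15, D90 and D250. Over the same days Jersey cattle had 47.2, 68.8 and 300.1 FPKM. The D15 values of the breeds lay close together, at a ratio of 1.12. Jersey was 2.03-fold higher at D90 and 7.40-fold higher at D250, and only the last of these was past the limit. The rise in Jersey cows was 6.36-fold from D15 and 4.36-fold from D90. As a percentile within its group, STAT3 stood between 87.7 and 91.3 in Kashmiri cows and went from 88.6 to 96.9 in Jersey cows.

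STAT6, which carries the signal of interleukins 4 and 13, differed between the breeds by ratios that lay closer together over the days than those of STAT3. It had 20.4, 37.0 and 33.8 FPKM in Kashmiri cows and 53.0, 121 and 146 FPKM in Jersey cows. The ratio of Jersey to Kashmiri was 2.60, 3.27 and 4.33 on the 3 days. The log2 ratio at D250, with the pseudocount, was 2.08, past the limit by a narrow margin, and it fell short of the limit with either rescaling of FPKM. From D15 to D250 the level was 2.76-fold higher in Jersey and 1.66-fold higher in Kashmiri cows, short of the limit in both. Its ligands IL4 and IL13 had at most 4.26 and 1.09 FPKM, both in Kashmiri at D90, and IL13 was in an entry joined with RAD50.

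STAT2, STAT5A and STAT5B were the other STAT genes found. STAT5A, the factor of prolactin signalling, had 106, 78.5 and 72.8 FPKM in Kashmiri cows and 56.7, 112 and 133 FPKM in Jersey cows. Among the 3 other STAT genes, 0 were past the limit between D15 and D250 in Jersey cows (background 9.17% higher and 3.42% lower). In Jersey over Kashmiri at D250, 1 (STAT2) was past it and higher (background 10.9%). So few genes cannot be told apart from the background. Of the summed STAT FPKM, STAT5A held the largest share in all groups except Jersey at D90, where STAT6 led with 36.2%, and Jersey at D250, where STAT3 led with 44.4%. The ratio of STAT3 to STAT5A was 0.395, 0.430 and 0.557 in Kashmiri cows and 0.831, 0.612 and 2.25 in Jersey cows. Jersey at D250 was thus the group in which more STAT3 than STAT5A transcript was measured.

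SOCS3, the feedback inhibitor that STAT3 induces, behaved like OSM more than like STAT3. Its level was 12.2, 16.7 and 9.79 FPKM in Kashmiri cows. The Jersey values were 126, 110.1 and 874 FPKM. Jersey was 10.3-fold higher at D15, 6.59-fold at D90 and 89.3-fold at D250. All of these were past the limit. From D90 to D250 the level rose 7.93-fold in Jersey cows, whereas the Kashmiri value at D250 was 0.586 of that at D90. The ratio of SOCS3 to STAT3 within a group was 0.291, 0.494 and 0.241 in Kashmiri cows and 2.67, 1.60 and 2.91 in Jersey cows, so that it was already higher in Jersey at D15, when STAT3 itself was nearly equal in both breeds.

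PIAS1, a SUMO ligase that inhibits activated STAT proteins, was the gene past the limit between D15 and D90 in both breeds. It had 1.72, 11.0 and 10.2 FPKM in Kashmiri cows and 4.97, 49.4 and 105.5 FPKM in Jersey cows. The D15 value was the lowest in each breed. D90 over D15 was 6.39-fold in Kashmiri and 9.92-fold in Jersey cows, and D250 over D15 was 5.94-fold and 21.2-fold. Jersey was 2.90-fold higher at D15, 4.50-fold at D90 and 10.3-fold at D250. Its percentile rose from 38.8 to 72.0 in Kashmiri cows and from 57.3 to 93.0 in Jersey cows.

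The 17 other inhibitors of the pathway were all found. Between D15 and D250 in Jersey cows, 5 of them were past the limit and higher, again against 9.17% of all genes, and 0 lower, against 3.42%. They were PIAS2 (4.40 to 34.8 FPKM), the phosphatase genes PTPN1 (41.7 to 178 FPKM), PTPN2 (24.9 to 112 FPKM) and PTPRC (60.0 to 320 FPKM), and the ubiquitin ligase gene CBL (4.55 to 23.0 FPKM). The median log2 ratio of all 17 was 0.92. PTPRC encodes CD45, which is carried by leukocytes in general. Neither the other SOCS genes nor CISH, the inhibitor induced by STAT5, were past the limit between these days, unlike SOCS3. SOCS1 had 11.9 FPKM at D15 and 3.27 FPKM at D250 in Jersey cows, and CISH had 26.1 and 50.4 FPKM. CISH and SOCS7 (5.50 FPKM) were, like SOCS3, highest in Jersey at D250.

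The counts between the days show over which days the 10 genes changed within each breed. From D15 to D90, 1 of 10 was past the limit and higher in Kashmiri cows (PIAS1, background 2.34%) and 2 of 10 in Jersey cows (TYK2 and PIAS1, background 2.98%). From D90 to D250, 0 of 10 were in Kashmiri cows, against 0.859% of all genes, and 4 of 10 in Jersey cows, against 3.72%. These 4 were OSM, JAK2, STAT3 and SOCS3, of which JAK2 and STAT3, each with a log2 ratio of 2.11, fell short of the limit with either rescaling of FPKM. The median log2 ratio of the 10 genes in Jersey cows was 0.91 from D15 to D90, 1.51 from D90 to D250 and 2.71 from D15 to D250. In Kashmiri cattle it was 0.63 from D15 to D90 and 0.18 from D15 to D250. With FPKM rescaled to the total without milk protein genes, the Jersey median was 1.14 from D15 to D90 and 1.11 from D90 to D250. The medians of all genes were then 0.17 and -0.21. JAK1, JAK3, STAT3 and SOCS3 had log2 ratios of D250 over D15 between -0.05 and -0.29 in Kashmiri cows, whose sign changed with either rescaling, and between 2.25 and 2.79 in Jersey cows, whose sign did not.

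**Figure D3:**
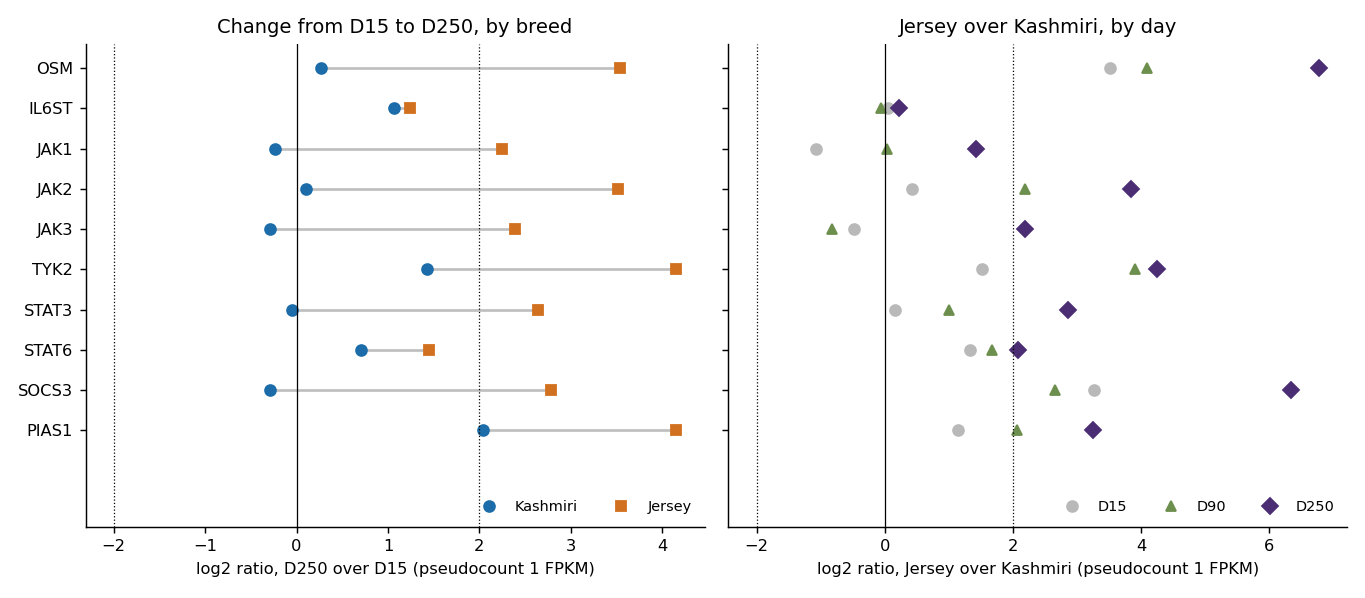
Log2 ratios of the 10 genes with a pseudocount of 1 FPKM, as D250 over D15 in Kashmiri (blue circles) and Jersey cattle (orange squares) on the left, and as Jersey over Kashmiri at D15 (grey circles), D90 (green triangles) and D250 (purple diamonds) on the right. Dotted lines mark the limit of 2 in either direction. For 9 of the 10 genes the Jersey point lay to the right of the Kashmiri point by 0.74 or more, with 3.41 for JAK2 as the widest gap, and for IL6ST by 0.17.

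Between the breeds, the number of the 10 genes past the limit increased with the day as deposited. At D15, 2 of the 9 genes that reached 1 FPKM were past it and higher in Jersey cows (OSM and SOCS3), against 6.45% of all 11202 genes. At D90, 5 of 10 were (OSM, JAK2, TYK2, SOCS3 and PIAS1), against 6.58%. At D250, 8 of 10 were, all but IL6ST and JAK1, against 10.9%. The median log2 ratio of the genes was 1.14, 1.88 and 3.05 at the 3 days, beside -0.13, -0.03 and -0.10 for all genes compared. The 3 comparisons within Jersey cows and those between the breeds share the same Jersey values, so the counts are not independent of each other. With FPKM rescaled by the upper quartile or to the total without milk protein genes, 6 of 10 were past the limit at D250, since JAK3 and STAT6 fell short of it. The share of all genes was then 7.79% with the first and 6.84% with the second. At D90, PIAS1 fell short with the first rescaling (background 6.08%) and STAT6 was added with the second (background 8.65%). With the second, the counts were thus 2 (background 8.30%), 6 and 6 at D15, D90 and D250, with no increase after D90. The median log2 ratios were then 1.37, 2.21 and 2.32.

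Genes known as targets of STAT3 were looked up by a list of 20 symbols, of which 13 were found. Between D15 and D250 in Jersey cows, 7 of the 12 that reached 1 FPKM were past the limit and higher (background 9.17%) and 0 lower (background 3.42%), with a median log2 ratio of 2.49. PIM1, a survival kinase gene, had 62.2, 67.4 and 64.4 FPKM in Kashmiri cows and 83.5, 353 and 965 FPKM in Jersey cows. BCL3, a partner of NF-kB, had 12.3, 23.9 and 16.1 FPKM in Kashmiri and 76.1, 231 and 799 FPKM in Jersey cows. FOS, of the AP-1 factors, rose from 291 to 2332 FPKM between D15 and D250 in Jersey cows. JUNB, another AP-1 gene, rose from 387 to 1774 FPKM, and ZFP36, which encodes an RNA-decay factor, rose from 253 to 1742 FPKM. SBNO2 (34.5 to 283 FPKM) and HIF1A (20.3 to 328 FPKM) were the other genes past the limit. CTSB, the lysosomal cathepsin B of involution, did not follow them, with 3772, 4479 and 2019 FPKM in Jersey cows and 235, 909 and 1006 FPKM in Kashmiri cows. IGFBP5, the insulin-like growth factor binding protein known from involution, had at most 0.891 FPKM (Kashmiri, D15) and was listed at 0 in Jersey cows at D90 and D250.

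In Jersey over Kashmiri at D15, where the ratio of STAT3 was 1.12, 5 of the 12 target genes compared (BCL3, JUNB, FOS, ZFP36 and CTSB) were past the limit and higher (background 6.45%) and 1 (PIK3R1) lower (background 2.12%), and at D250 there were 8 of 12 higher (background 10.9%) and 0 lower (background 1.37%). The median log2 ratio of the targets was 1.79 at D15 and 3.53 at D250. For the receptor chains and ligands, 7 of 25 were past the limit and higher at D15 (background 6.45%) and 17 of 26 at D250 (background 10.9%), with 0 lower on both days (background 2.12% and 1.37%). Of the other inhibitors, 1 of 16 (PTPN6, the phosphatase SHP-1) was higher in Jersey at D15 and 2 of 17 (PTPN1 and CBL) at D250, shares near the background of 6.45% and 10.9%.

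The markers of other cells were set beside these results, and they ran alike in some comparisons and not in others. The neutrophil marker sum was 31.7-fold higher in Jersey than in Kashmiri cows at D15, 12.1-fold at D90 and 20.2-fold at D250. On these days 7 of the 8, 7 and 8 markers compared were past the limit and higher, against 6.45%, 6.58% and 10.9% of all genes. From D15 to D250 it was 2.49-fold higher in Jersey cows, where OSM was 11.7-fold, SOCS3 6.94-fold and STAT3 6.36-fold higher. In Kashmiri cattle the neutrophil sum was 3.90-fold higher at D250 than at D15, while OSM was 1.23-fold, SOCS3 0.801-fold and STAT3 0.966-fold. The single markers did not share 1 direction within Jersey cows, since S100A8 had 1652 FPKM at D15 and 3034 FPKM at D250, while MMP9 had 25.0 FPKM at D15 and 14.8 FPKM at D250. The 10 macrophage markers summed to 109, 483 and 491 FPKM in Kashmiri cows and to 1014, 2145 and 1852 FPKM in Jersey cows, mostly as CD68 and CD14. Of the 9 macrophage markers compared from D15 to D250 in Jersey cows, CD68 was past the limit and higher (169 to 996 FPKM, background 9.17%). C1QA (145 to 12.01 FPKM), C1QB (98.2 to 10.4 FPKM) and C1QC (144 to 6.80 FPKM) fell past it (background 3.42%). The 7 B cell markers summed to 16.8, 82.0 and 30.1 FPKM in Kashmiri and to 25.6, 11.9 and 8.60 FPKM in Jersey cows. Epithelial markers did not take the order of the 10 genes, as their sum was lowest at D90 in both breeds. The part of neutrophils, macrophages and other leukocytes in the levels of the 10 genes was not tested.

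**Figure D4:**
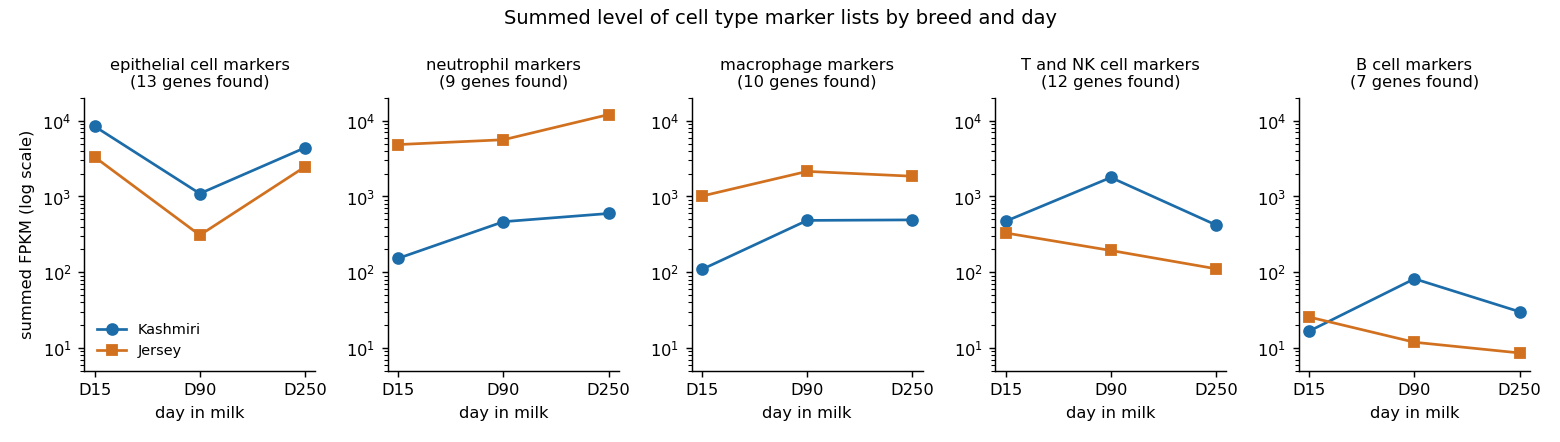
Summed FPKM (vertical axis, log scale) of the epithelial, neutrophil, macrophage, T and NK cell and B cell markers found, on D15, D90 and D250 in Kashmiri (blue circles) and Jersey cattle (orange squares), with 1 deposited value per gene and group. The neutrophil sum was 4848 FPKM or more in Jersey and 596 FPKM or less in Kashmiri cows, while the T and NK cell sum was highest in Kashmiri at D90, at 1783 FPKM.

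The 10 genes were not alike in how their levels ran over the 6 groups. Likeness was measured as the root mean square difference of 2 profiles of log2(FPKM + 1), each centred on its own mean over the 6 groups, where 0 means the same profile. The most alike pairs among the 10 were JAK1 and JAK3 (0.43), JAK2 and STAT3 (0.50), OSM and SOCS3 (0.53), and IL6ST and JAK1 (0.53). TYK2 and PIAS1, which both increased early, differed by 0.63. The least alike were OSM and IL6ST (2.52), although one encodes a ligand and the other a chain of its receptor. STAT3 and SOCS3, its target, differed by 1.43.

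The same measure was taken against 6634 other genes that had a symbol, 1 entry and at least 1 FPKM in every group. The profile most like that of STAT3 was SENP2, at 0.0498, followed by TMF1 (0.17) and CSNK1A1 (0.19), where the median over all candidates was 1.17. SENP2 had 8.44, 7.21 and 7.96 FPKM in Kashmiri and 10.2, 14.8 and 64.3 FPKM in Jersey cows. For SOCS3 the nearest were FOS (0.38), THBD (0.41) and CYTH4 (0.41), and for OSM they were KIAA0226L (0.18), THBD (0.24) and AMPD3 (0.25). The nearest to JAK1 were VAMP2 (0.15), RBBP6 (0.19) and ZKSCAN1 (0.20), and to JAK2 they were EPG5 (0.25), NIN (0.27) and PIM1 (0.28). The joined JAK3 entry was nearest to PTPN2 (0.16), CYTIP (0.21) and GABARAPL1 (0.22). TYK2 was nearest to MAP3K8 (0.32), RNF13 (0.34) and FMNL3 (0.41), and PIAS1 to RAB8B (0.25), RNF13 (0.37) and ABHD13 (0.38). For STAT6, DAPP1 (0.082) and ATP6V1E1 (0.12) were among the 3 nearest, and for IL6ST they were TRMT1L (0.085), CA5B (0.095) and ATXN2L (0.11). With 6 values per gene and this many candidates, a close match is a description of these groups.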

How the data were processed

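RNA of MEC captured from milk was sequenced by the authors from poly-A selected libraries made with a stranded kit. Reads passed through Trimmomatic, were placed on the UMD3.1 assembly by TopHat, which uses Bowtie, and were turned into gene levels by Cufflinks and Cuffdiff. The deposited values are the authors' FPKM, 1 per gene, breed and stage, in which the libraries of a group are combined, and they come with no counts, so the depth behind a value was not analysed here and no interval was computed. Stages 1, 2 and 3 were taken as D15, D90 and D250, and the columns named Local as Kashmiri, the breed of the labels other than Jersey. Of 61264 entries, 25121 carried a name. A joined name was looked up by its parts, and of several entries with 1 name the one with the highest mean counted.

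Ratios of single genes had no pseudocount, and counts, in 9 comparisons, used a pseudocount of 1 FPKM, a log2 ratio of 2 in either direction as the limit, and genes that reached 1 FPKM on one side. No test was possible. Named genes were the 10 members, the 4 genes with the highest level and those past the limit between D15 and D250 in Jersey cattle of each list of other pathway genes, the markers, and the 3 nearest profiles per member. Genes named beyond these rules (among them OSMR, LIFR, IL4, IL13, IL7R, IL21R, CNTFR, IL11RA, SOCS1, CISH, PIK3R1 and IGFBP5) were chosen after their values were seen. The members and lists were chosen with earlier results of these data known. The alternatives were another pseudocount, limit, low-value filter, 2 rescalings, summed entries and JAK3 left out. The code was tested on simulated data. Values of a few single genes are not reported here. The tools were pandas 2.3.3 and numpy 2.4.6 in Python 3.11.15, with plots by matplotlib 3.10.9. Gene names were matched to RefSeq (assembly NIAB-ARS_B.indTharparkar_mat_pri_1.0, not the build of the files), where all 10 were found, and no coordinate or sequence is given.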

Additional observations from a re-analysis of the deposited data

How the results depend on the processing

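With a limit of 1 in place of 2 for the log2 ratio, the number of the 10 genes past it and higher became 3 from D15 to D90 and 3 from D15 to D250 in Kashmiri cattle (14.7% and 11.2% of all genes), 4 from D15 to D90 and 7 from D90 to D250 in Jersey cattle (12.8% and 16.6%), and 5 for Jersey over Kashmiri at D15 (15.9%). In the lower direction, 1 gene was past it from D90 to D250 in Kashmiri cattle (JAK3, background 8.77%) and 1 for Jersey over Kashmiri at D15 (JAK1, background 13.0%). Rescaling FPKM by the upper quartile shifted log2 ratios by -0.53 to 0.34, and rescaling to the total without milk protein genes by -0.76 to 1.01. With either rescaling, 2 genes were past the limit from D90 to D250 in Jersey cattle, against 2.78% of all genes with the upper quartile and 2.25% with the total. With the total, 2 were past it from D15 to D250 in Kashmiri cattle, against 7.14% of all genes. The median log2 ratio then became 0.61 from D90 to D250 and 1.06 from D15 to D250 in Kashmiri cattle, and 2.32 for Jersey over Kashmiri at D250. The difference between this median and that of all genes at D250, 3.16 as deposited, was then 3.06. The other alternatives (a pseudocount of 0.1 FPKM, a filter of 0.01 FPKM, summed entries and JAK3 left out) left all 9 counts and all 9 medians within 1.5-fold. For the lists of other pathway genes, rescaling and summed entries were chosen after seeing the data. The median for Jersey over Kashmiri at D250 became 2.40 for the receptor chains and ligands, 0.19 for the other STAT genes, 0.51 for the other inhibitors and 2.77 for the STAT3 targets with the total without milk protein genes. Of 90 single ratios, 10 changed sign with the upper quartile and 14 with the total, none of them above 0.323 in size, and 0 with summed entries. Leaving out a cow was not possible with 1 value per group. No paired analysis was possible because the values carry no replicate. Depth and the spread between cows, which would set how far a ratio can be trusted, were not analysed here.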

Other observations

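Among the receptor chains of lymphocyte cytokines, IL2RB and IL21R were chosen for a closer look after their values were seen, because they were not highest in Jersey at D250. IL2RB, the beta chain for interleukins 2 and 15, had 30.6, 90.8 and 20.6 FPKM in Kashmiri cows and 14.3, 6.08 and 6.85 FPKM in Jersey cows. IL21R had 13.3, 58.4 and 11.7 FPKM in Kashmiri and 11.2, 8.80 and 11.6 FPKM in Jersey cows. Both were highest in Kashmiri at D90, the group with the highest sum of T and NK cell markers (1783 FPKM). Other chains of this kind were highest in Jersey at D250, namely IL2RA with 133 FPKM, against at most 4.56 FPKM in Kashmiri cows, IL2RG with 747 FPKM, IL4R with 212 FPKM and IL7R with 74.5 FPKM.

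PRLR, GHR, CNTFR and IL11RA, chosen after their values were seen, had their highest levels in Kashmiri at D15. Of these, CNTFR and IL11RA work with gp130. Among other chains that work with gp130, IL6R was highest in Jersey at D250, and OSMR and LIFR in Kashmiri at D250. PRLR, the prolactin receptor, had 2.64, 0.409 and 1.08 FPKM in Kashmiri and 0.523, 0.0464 and 0.435 FPKM in Jersey cows. GHR, the growth hormone receptor, had 2.36, 0.319 and 1.57 FPKM in Kashmiri and 0.154, 0.0547 and 0.659 FPKM in Jersey cows. CNTFR had 27.5, 1.62 and 3.73 FPKM in Kashmiri and 6.96, 0.852 and 3.90 FPKM in Jersey cows, and IL11RA had 20.7 FPKM in Kashmiri at D15 and between 3.21 and 8.20 FPKM in the other groups. PRLR, GHR and CNTFR were lowest at D90 in both breeds, as was the sum of the epithelial markers. PIK3R1, the regulatory subunit gene of PI3 kinase and a target of STAT3, was lower in Jersey cows on every day, with 7.68, 8.21 and 8.41 FPKM against 35.6, 66.2 and 30.2 FPKM in Kashmiri cows.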
